A study of Xenopus laevis with 6 samples.

Results

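Knockdown of the transcription factor TFAP2A was compared with a control morpholino in cultured ectoderm of the frog Xenopus laevis. The comparison rests on 4 of the 6 arrays in the series, 2 of caps injected with TFAP2A MO1/2 and 2 of caps injected with Control MO, and it is described over all 11303 genes that carry 1 gene symbol, out of 32539 probe sets tested. Animal caps are the pigmented roof of the blastula, which turns into epidermis when it is cut out and cultured. Embryos came from in vitro fertilization and were injected on the animal side at the 4-cell stage. TFAP2A caps received 40 ng of each of a pair of morpholinos, and control caps received 80 ng of the control morpholino. All caps were cut at stage 9 and collected at stage 15. A further 2 arrays, of caps with 40 ng of each of a pair against the kinase ERK3, helped to estimate the spread and were compared with TFAP2A caps for the named genes. The labels call the replicates biological and independent, and give neither the number of embryos nor of clutches.

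AP-2 alpha, the protein made from tfap2a, binds DNA as a dimer and is known as an activator of epidermal and neural crest genes in vertebrate ectoderm. It acts in frog ectoderm beside BMP signalling, and keratin genes of the larval epidermis are among its known targets. At about stage 15 the embryonic epidermis holds outer goblet cells and an inner layer that gives rise to multiciliated cells, ionocytes and small secretory cells. Morpholinos are antisense oligonucleotides that block translation or splicing of a transcript. With a block of translation, the amount of tfap2a RNA does not test the knockdown. The labels do not say which kind these were, so that amount is not read as a test here.

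The values are array intensities, given here per array on a linear scale. A log2 change is TFAP2A MO1/2 minus Control MO, and ± is the standard error (SE) of limma's moderated fit with 2 arrays per group. A gene was called higher or lower at an adjusted p under 0.05 over all probe sets. The RNA of tfap2a.L gave 1495.2 and 1286.8 in TFAP2A caps, against 1125.5 and 753.4 in control caps, and did not pass (0.59 ± 0.23, adjusted p = 0.171). The other copy, tfap2a.S, also did not pass (0.24 ± 0.18).

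Of 20 epidermal markers 14 were above the median level of all genes in control caps, an intensity of about 61, and 5 were dim in both groups. Their summed intensity was 29688 and 29825 in TFAP2A caps, against 41373 and 43955 in control caps. Of the 20, 6 fell and 0 rose, beside 7.41% lower and 4.91% higher over all genes. The keratin gene krt70.S, at 11267.8 and 10927.5 in TFAP2A caps and 11236.3 and 10666.7 in control caps, showed a change of 0.02. Markers of blood summed to 127 and 122 in TFAP2A caps and 100 and 127 in control caps over 11 genes, and those of neural crest to 106 and 103 in TFAP2A caps and 127 and 244 in control caps over 8 genes. Markers of neural plate summed to 1115 and 1187 in TFAP2A caps and 1349 and 1556 in control caps over 15 genes, led by tubb2b.S. Those of endoderm summed to 1075 and 1688 in TFAP2A caps and 1071 and 1607 in control caps over 12 genes, led by gata5.S. In control caps 5 of the 12 were above the median level of all genes. Others, such as gata4.L at 56.5 and 56.0, were below it but above the median over all probe sets, which lay between 23.2 and 24.6. The part of such cells in the results was not tested. No marker of blood, neural crest or endoderm was called by limma. The markers of neural plate and of mesoderm each had 1 member that fell, otx2.S and actc1.L. Bulk caps cannot tell fewer cells of a type from less RNA per cell, and this holds for each result below on cell type genes.

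In TFAP2A caps 3677 probe sets were called, 11.3% of 32539, of which 1724 (5.3%) were higher and 1953 (6.0%) lower. At an unadjusted p under 0.05 they numbered 8927 (27.4%). Among genes 1392 were called, 12.3% of 11303, and 3435 (30.4%) had an unadjusted p under 0.05. Of the called genes, 555 rose, 4.91% of all genes, and 837 fell, 7.41%. The median change was 0.89 among genes that rose and -0.99 among those that fell, against 0.01 over all genes. More than 2-fold differences numbered 213 up and 406 down, and more than 8-fold differences 4 up and 5 down. Falls outnumbered rises among genes with a high level in control caps. With genes in 4 equal bins by control level, 9.87% fell and 3.57% rose in the brightest bin, whereas 0.46% fell and 2.16% rose in the dimmest. The dimmest bin ended at an intensity of 10.2, close to the floor of the array, where little further fall can be measured. The bins also use the same 2 control arrays as the change, so part of this pattern can come from the binning, which was not tested.

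**Figure D1:**
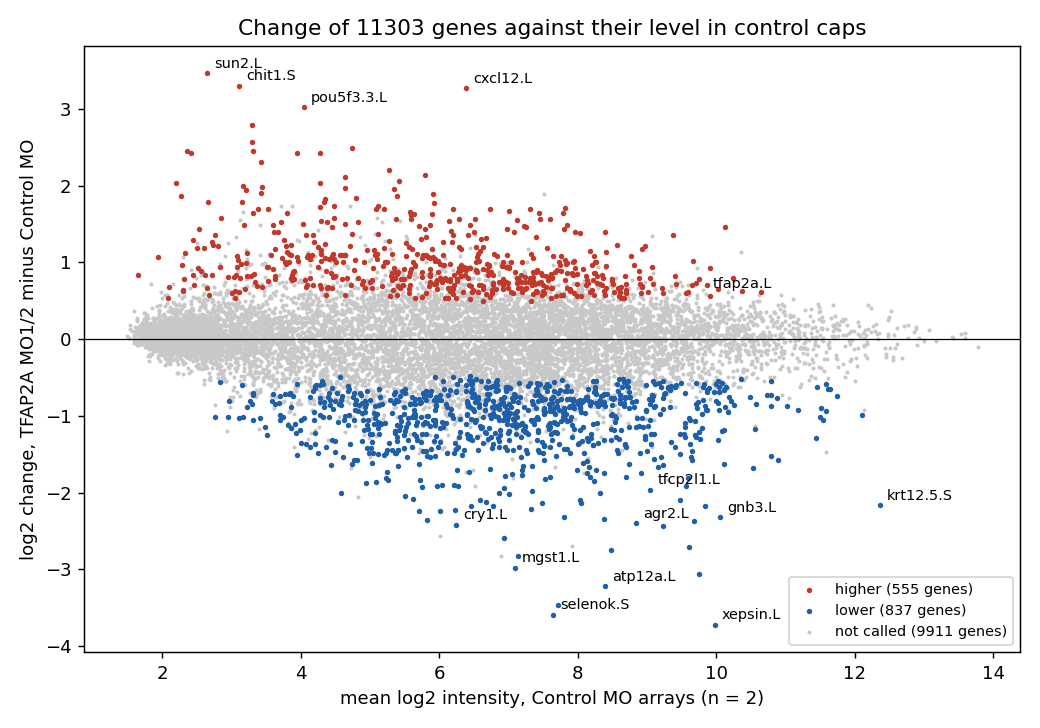
Each point is 1 of 11303 genes, with its mean log2 intensity on the 2 Control MO arrays on the horizontal axis and its log2 change, TFAP2A MO1/2 minus Control MO, on the vertical axis. Red marks the 555 genes called higher, blue the 837 called lower and grey the rest. The largest falls lie among genes of medium to high control level, and both axes use the same 2 Control MO arrays.

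The calls depend on having both control arrays. Without Control MO replicate 2, limma called 3 genes, 0.0265% of 11303, and 6373 of 32539 probe sets had an unadjusted p under 0.05. The 3 were sun2.L and chit1.S, which rose, and selenok.S, which fell. Without Control MO replicate 1 it called 259 genes, without TFAP2A MO1/2 replicate 1 it called 234, and without TFAP2A MO1/2 replicate 2 it called 28. Among the 1392 called genes 0 changed sign in any of these fits. This follows from the calls, since in all 1392 the groups do not overlap, and it does not measure stability.

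Replicates and array pairs were compared gene by gene. The median gap between replicate 1 and replicate 2 was 0.18 on the log2 scale in TFAP2A caps and 0.18 in control caps. More than 2-fold gaps were seen for 216 genes in TFAP2A caps and 234 in control caps. When each TFAP2A array was set against the control array of the same number, both pairs had the same sign for 76.9% of genes, 8687 of 11303. The changes of the pairs correlated at 0.81 across genes, which are not independent replicates, and the median distance between them was 0.19. With the numbers crossed, replicate 1 against 2 and 2 against 1, the same sign was found for 65.1% of genes, the correlation was 0.45 and the distance 0.30.

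All 1392 called genes had the same sign in both numbered pairs and also in both crossed pairs. The calls were made on these same arrays, and the groups of all called genes do not overlap. The agreement therefore follows from the calls and is no separate check. Genes that fell had a median change of -0.92 in the first pair and -1.03 in the second, and those that rose had 0.84 and 0.95. The distance between the pairs reached 1 or more for 10 called genes and for 160 of all genes. The 2 TFAP2A arrays lay wholly above or wholly below the control arrays for 6661 genes, 58.9%, of which 3313 (29.3%) lay above and 3348 (29.6%) below.

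**Figure D2:**
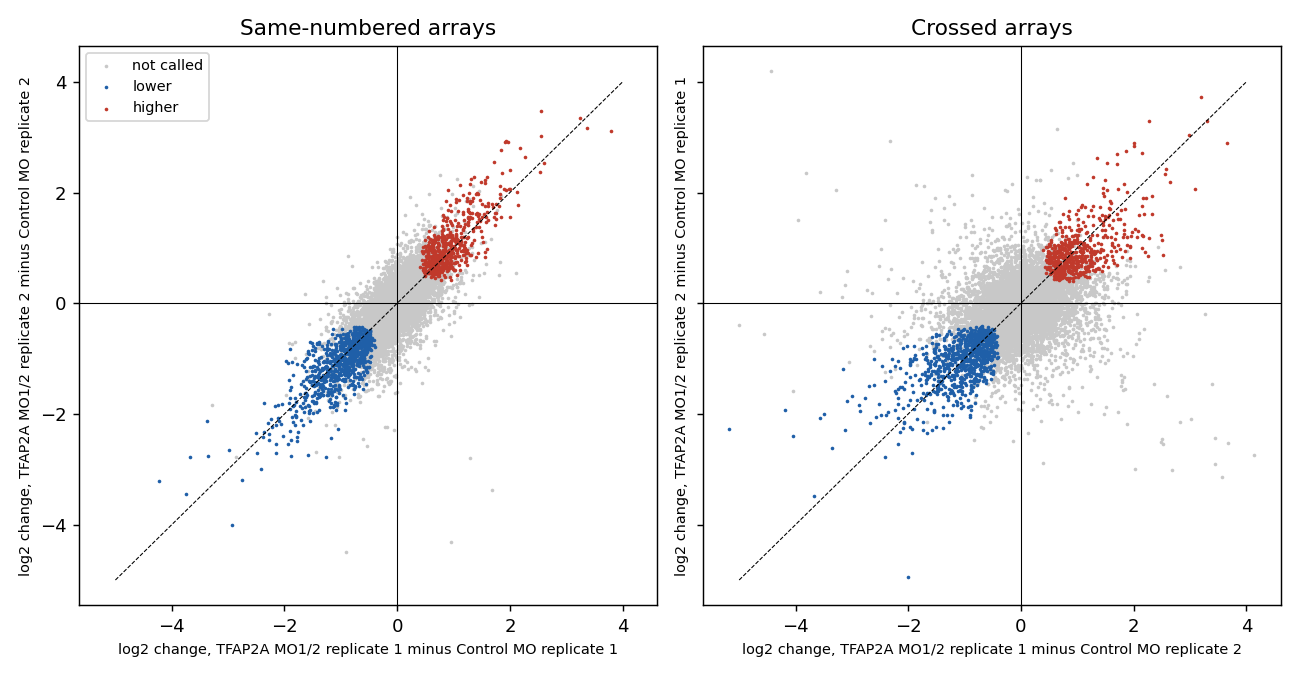
Log2 change of each of 11303 genes for 1 pair of arrays against the other pair, TFAP2A MO1/2 minus Control MO, with arrays of the same replicate number on the left and crossed numbers on the right. Red, blue and grey mark genes called higher, called lower and not called. The called genes lie along the dashed line of equal change in both panels, and the uncalled genes scatter more widely with crossed numbers, where the correlation was 0.45 against 0.81.

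The shares of called genes varied over 67 lists of genes with a shared role, chosen with earlier results of these data known. Cement gland and hatching gland genes had 6 of 10 members lower, ciliary axoneme genes 20.4%, ionocyte genes 19.5% and genes of protein folding in the endoplasmic reticulum 17.0%, beside 7.41% of all genes. Among lists of 50 or more genes, mitosis and kinetochore genes had the highest share of rises, 16.8%, and nuclear envelope and transport genes followed with 13.3%, beside 4.91% of all genes. In the list of 89 cytosolic ribosomal proteins 0 genes were called by limma, with a median change of 0.02.

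**Figure D3:**
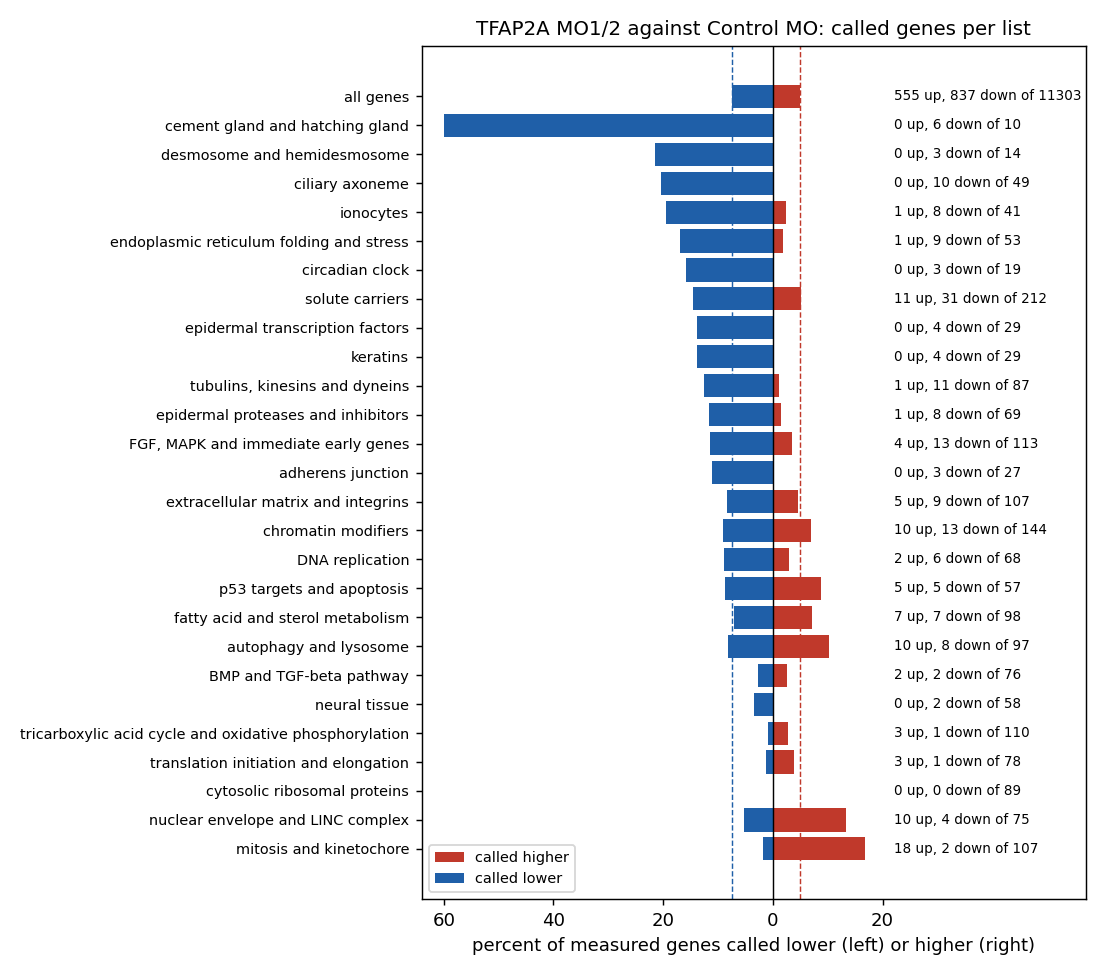
Share of measured genes called higher (red, to the right) and lower (blue, to the left) with TFAP2A MO1/2 against Control MO in all genes and 26 of the 67 lists, with the counts at the right. Dashed lines mark the shares over all genes, 4.91% higher and 7.41% lower.

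The AP-2 list held the measured AP-2 factors and their known partners, 7 genes in all. Its 1 called member was kctd15.L, whose protein is known in zebrafish and human cells to bind AP-2 alpha and inhibit it. The intensity of kctd15.L was 195.6 and 213.7 in TFAP2A caps, against 470.7 and 536.6 in control caps, a fall of 1.30 ± 0.13 (adjusted p = 0.00846). Both array pairs showed it. Other family members, tfap2b.L and tfap2e.L, stayed under an intensity of 10 on every array. The cofactor genes cited2.L and cited4.L, whose proteins link AP-2 to coactivators, had changes of -0.32 and -0.27 and did not pass. The median of the list was -0.18, but 0.07 without TFAP2A MO1/2 replicate 2 and -0.06 without Control MO replicate 2, so its sign is not settled.

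Epidermal transcription factors fell or were not called, with 4 of 29 lower (13.8%, against 7.41% of all genes), 0 higher and a median of -0.26. Both copies of tp63, which maintains the basal layer of stratified epithelia, fell. The brighter copy, tp63.S, read 41.3 and 52.1 in TFAP2A caps, against 98.8 and 138.3 in control caps. The dimmer tp63.L read 6.0 and 7.1 in TFAP2A caps, near the floor, against 15.5 and 18.3 in control caps. In ERK3 caps tp63.S read 78.3 and 57.7 and tp63.L read 7.1 and 7.9, also below control caps. Among the grainyhead factors, which are known activators of epidermal barrier genes, grhl3.L changed by 0.21 and grhl3.S by -0.08, and neither passed. The median of the 29 was -0.29 without Control MO replicate 2, where 0 of them were called.

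Among 29 keratins 4 fell (13.8%, against 7.41% of all genes) and 0 rose. The intensity of krt12.5.S was 1072.1 and 1290.5 in TFAP2A caps, against 5065.2 and 5489.6 in control caps, 4.48-fold lower (adjusted p = 0.00594). It was among the brightest genes of control caps, and its arrays were far apart between the groups and close within them. The related krt12.4.L, at 2819.6 and 1739.5 in TFAP2A caps and 4358.7 and 4467.6 in control caps, fell by 0.99 ± 0.23, and krt12.4.S had a change of -0.93 and did not pass. Keratin genes of this family are close in sequence, so probe sets may not keep the members fully apart. The keratin of simple epithelia krt18.3.L fell by 1.18 ± 0.24 and krt19.L by 1.13 ± 0.25.

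The junction lists are small, and their counts stand beside 7.41% lower and 4.91% higher over all genes. Of 27 adherens junction genes 3 fell and 0 rose, and of 14 desmosome and hemidesmosome genes 3 fell and 0 rose, with medians of -0.03 and -0.23. The E-cadherin gene cdh1.S gave 91.2 and 79.8 in TFAP2A caps, against 243.0 and 216.0 in control caps. Its partner in cell contacts nectin1.L fell by 1.52 ± 0.25. Envoplakin, which ties keratin filaments to the cell edge, is encoded by evpl.L, and this gene read 342.7 and 363.3 in TFAP2A caps, against 887.9 and 852.5 in control caps (-1.30 ± 0.12, adjusted p = 0.00792). The tight junction list of 29 had 1 rise and 0 falls by the brightest probe sets. In this list cldn1.S had the largest change, -2.56 ± 0.93, at 4.2 and 28.1 in TFAP2A caps, against 41.3 and 99.9 in control caps, and did not pass, while its dimmer probe set was called lower (-1.12). The 1 rise was in the claudin gene cldn6.2.S, by 0.73 ± 0.15, while cldn6.2.L had a change of -0.51 and did not pass. In apical-basal polarity 2 of 23 genes rose and 3 fell. The polarity kinase gene mark2 fell in both copies, by 1.21 ± 0.22 in mark2.L and 1.10 ± 0.20 in mark2.S.

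Of 107 genes of the extracellular matrix and integrins, 9 fell (8.41%) and 5 rose (4.67%), with a median of 0.01. These shares were near those of all genes, 7.41% lower and 4.91% higher. The laminin receptor subunit gene itga3.L read 46.3 and 59.3 in TFAP2A caps, against 174.0 and 195.8 in control caps (-1.82 ± 0.16, adjusted p = 0.00782). The metalloprotease gene adam33.L fell by 1.90 ± 0.27, and the collagen prolyl hydroxylase gene p3h1.L fell by 1.49 ± 0.19. In the other direction, the platelet-type integrin gene itga2b.1.S rose by 1.58 ± 0.16 and the matrix metalloprotease gene mmp28 rose in both copies, of which mmp28.L stayed under an intensity of 7. Of 69 epidermal proteases and inhibitors 8 fell (11.6%) and 1 rose (1.45%). The largest fall of this list, and of all 11303 genes, was in xepsin.L, with a change of -3.72. This gene read 38.6 and 150.9 in TFAP2A caps, against 725.6 and 1397.8 in control caps. Calpain subunits, of the calcium-dependent cysteine proteases of the cytosol, made up 5 of the 8 falls. Among the calpains, capn2.L led, at 45.3 and 22.1 in TFAP2A caps, against 108.2 and 151.7 in control caps. Without Control MO replicate 2 none of the adhesion, matrix or protease calls was made by limma.

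Genes of the cement gland and hatching gland fell or were not called. The cement gland is the mucus-secreting organ at the front of the tadpole, and hatching gland cells release enzymes that open the egg coat. Of 10 such genes, 6 fell and 0 rose, beside 7.41% and 4.91% of all genes. In 9 both TFAP2A arrays lay below both control arrays, against 29.6% of all genes, and the median was -1.38. The secreted disulfide isomerase gene agr2.L read 74.9 and 101.1 in TFAP2A caps, against 389.0 and 543.0 in control caps, and agr2.S read 358.0 and 340.5 in TFAP2A caps, against 844.5 and 835.9 in control caps. The hatching enzyme family gene astl2d.1.L read 51.8 and 83.5 in TFAP2A caps, against 267.7 and 415.9 in control caps. The median was -1.15 without Control MO replicate 2. In the direct comparison of TFAP2A with ERK3 caps 0 of the 10 were called, against 5.7% of all genes. For example, agr2.S read 211.6 and 322.1 in ERK3 caps and ag1.S read 28.2 and 60.1, against 190.6 and 196.9 in control caps. The lack of a call does not show that the levels were equal.

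Of 41 ionocyte genes, 8 fell (19.5%, against 7.41% of all genes) and 1 rose (2.44%, against 4.91%), with a median of -0.27. Ionocytes are the acid- and base-secreting cells of the larval skin. The proton pump subunit gene atp6v1al.L read 209.6 and 231.0 in TFAP2A caps, against 661.4 and 903.4 in control caps (-1.81 ± 0.19, adjusted p = 0.00879). Another subunit, atp6v1b1.L, read 125.9 and 64.8 in TFAP2A caps, against 260.8 and 313.9 in control caps. For tfcp2l1, a factor of ion-transporting cells, tfcp2l1.L read 129.7 and 142.1 in TFAP2A caps, against 469.4 and 591.9 in control caps, with both groups clearly apart. The forkhead gene foxi1.L, which specifies ionocytes, had a change of -0.05 ± 0.44: it read 1315.5 and 712.1 in TFAP2A caps and 1333.8 and 751.2 in control caps, and its arrays split by replicate number instead. The carbonic anhydrase gene ca12.L had a change of 0.30. Leaving out Control MO replicate 1 brought the median of the list to -0.09, and leaving out TFAP2A MO1/2 replicate 2 brought it to -0.12. It was -0.29 when Control MO replicate 2 was left out.

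Most ciliary genes were not called, and the called axoneme genes were all lower. Of 49 genes of the axoneme, the microtubule core of motile cilia, 10 fell (20.4%, against 7.41% of all genes) and 0 rose. For 32 both TFAP2A arrays lay below both control arrays, which held for 29.6% of all genes. The median change was -0.49, made up of -0.20 in the first pair and -0.97 in the second. The gene ccdc78.S, whose protein acts in centriole amplification, read 27.6 and 24.2 in TFAP2A caps, against 80.7 and 91.3 in control caps. The outer dynein arm gene dnai1.L read 45.5 and 41.9 in TFAP2A caps, against 105.9 and 127.2 in control caps. The gap between the pairs shows in tekt4.S, a tektin of the microtubule wall, at 96.0 and 72.2 in TFAP2A caps, against 200.1 and 250.9 in control caps. Of 22 regulators of multiciliated cell fate, 1 rose, rfx2.S (4.55%, against 4.91% of all genes), and 1 fell, gmnn.L (4.55%, against 7.41%). Their median was -0.32. In 14 both TFAP2A arrays lay below both control arrays and in 3 above, against 29.6% and 29.3% of all genes. Among those not called, foxj1.L, the master regulator of motile cilia, read 325.1 and 331.5 in TFAP2A caps and 485.8 and 483.2 in control caps. Also not called, mcidas.S changed by -0.83 and the cyclin-like gene ccno.L by 0.05. For intraflagellar transport and basal body genes, the median was 0.10 in the first pair and -0.39 in the second. Of these 33 genes 2 fell (6.06%), near the 7.41% of all genes, and 0 rose, against 4.91%. The axoneme median was -0.80 without TFAP2A MO1/2 replicate 1, -0.25 without TFAP2A MO1/2 replicate 2 and -0.39 without Control MO replicate 2, where 0 of its genes were called by limma.

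**Figure D4:**
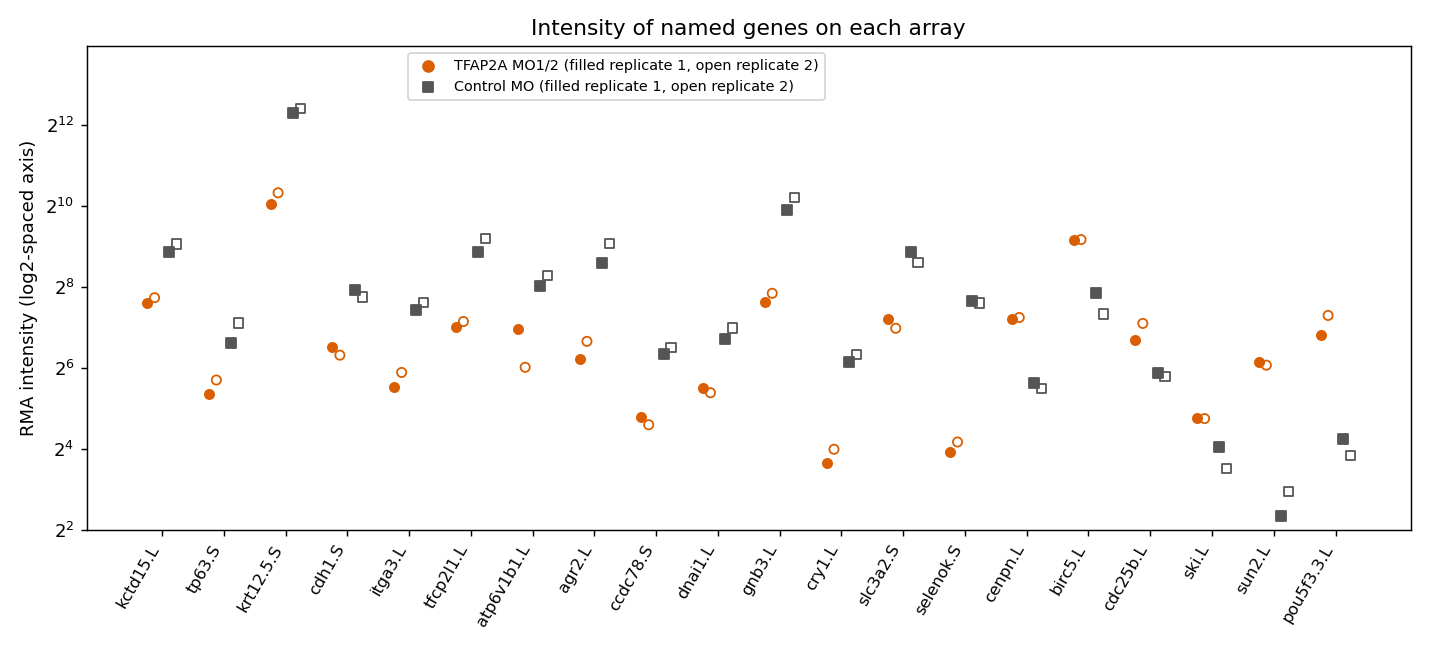
Array intensity of 20 named genes on a log2-spaced vertical axis, with TFAP2A MO1/2 in orange circles to the left of Control MO in grey squares, filled for replicate 1 and open for replicate 2. In each of the 20 genes, which were picked among the called genes, the groups do not overlap. This held for all 1392 called genes and for 58.9% of all 11303 genes. The first 14 genes were lower and the last 6 were higher in TFAP2A caps.

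Among mitosis and kinetochore genes rises outnumbered falls, with 18 of 107 higher (16.8%), 2 lower (1.87%) and a median of 0.21. Over all genes 4.91% were higher and 7.41% lower. The centromere gene cenpn.L read 147.3 and 152.1 in TFAP2A caps, against 49.9 and 45.3 in control caps (1.65 ± 0.17, adjusted p = 0.00846). Survivin, a subunit of the chromosomal passenger complex, is encoded by birc5.L, which read 569.9 and 578.9 in TFAP2A caps, against 231.8 and 161.5 in control caps. Another subunit of that complex, cdca8.L, read 1538.2 and 1761.1 in TFAP2A caps, against 868.0 and 755.5 in control caps. The list holds opposed regulators of mitotic entry, and both rose: the phosphatase gene cdc25b.L by 1.07 ± 0.18 and the inhibitory kinase gene wee1 by 1.08 ± 0.16 in wee1.S and 0.73 ± 0.15 in wee1.L. The 2 falls in the list were in the spindle checkpoint genes mad2l1.S, by 0.94 ± 0.13, and zwilch.S, by 0.75 ± 0.17. The kinase gene wee2, related to wee1 but not in the list, was lower in both copies. Its changes were -1.44 in wee2.L and -0.88 in wee2.S. Without Control MO replicate 2 the median of the list was 0.11 and none of its genes was called.

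Of 68 DNA replication genes 2 rose (2.94%) and 6 fell (8.82%), near the 4.91% and 7.41% of all genes. Their median was -0.04, and between -0.22 and 0.07 with 1 array left out. The difference from the mitosis list was not tested. The helicase complex gene gins4.L read 128.8 and 112.6 in TFAP2A caps, against 424.3 and 405.8 in control caps (-1.79 ± 0.13, adjusted p = 0.00643). The helicase subunit gene mcm5.S fell by 1.57 ± 0.14, and gmnn.L, which encodes the replication licensing inhibitor geminin, by 1.37 ± 0.14. For the topoisomerase gene top2a.L the brightest probe set fell by 0.95 ± 0.12 and another probe set changed by 0.15. The single-strand binding gene rpa2.L rose by 1.15 ± 0.20. Of 19 histone genes 2 rose and 0 fell, h2ac1.S and h2ac17.L, the brighter of which read 648.3 and 723.4 in TFAP2A caps, against 266.6 and 182.1 in control caps.

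Genes of the nuclear envelope and of nuclear transport had 10 of 75 higher (13.3%) and 4 lower (5.33%), with a median of 0.14. Over all genes 4.91% were higher and 7.41% lower. The linker gene sun2.L, whose protein spans the inner nuclear membrane, read 70.7 and 67.2 in TFAP2A caps, against 5.1 and 7.7 in control caps, and remained called without any 1 array. The torsin gene tor1a.L rose by 1.33 ± 0.18 and the importin recycling gene cse1l.L by 1.17 ± 0.13. The importin gene ipo5 fell in both copies, by 1.14 ± 0.12 in ipo5.S and 0.84 ± 0.16 in ipo5.L.

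Of 113 genes of FGF and MAPK signalling, 13 fell (11.5%) and 4 rose (3.54%), against 7.41% and 4.91% of all genes. Their median was -0.11 (-0.05 without Control MO replicate 2), and the falls included ligand, kinase and feedback genes. The phosphatase gene dusp1, which shuts off MAP kinases, fell in both copies, with dusp1.L at 717.0 and 648.1 in TFAP2A caps, against 1220.1 and 1155.0 in control caps. The kinase gene mapkapk2 also fell in both copies, by 1.08 ± 0.24 in mapkapk2.S and 0.79 ± 0.15 in mapkapk2.L. The ETS factor gene ets2.S, a nuclear target of the pathway, rose by 1.48 ± 0.27, with 658.3 and 623.2 in TFAP2A caps, against 308.4 and 171.1 in control caps. For the dim ligand gene fgf8.L, at 6.1 and 8.0 in TFAP2A caps and 17.4 and 13.1 in control caps, the brightest of 4 probe sets fell by 1.11 ± 0.21, and the other 3 changed by between -0.60 and 0.09 and were not called.

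In the BMP and TGF-beta list 2 of 76 genes rose (2.63%) and 2 fell (2.63%), with a median of -0.03. These shares were below the 4.91% higher and 7.41% lower of all genes. Both rises were in the copies of ski, a corepressor that binds Smad proteins, with ski.S at 236.1 and 265.0 in TFAP2A caps, against 154.1 and 120.6 in control caps. The falls were in id4.S, an inhibitor of helix-loop-helix factors, by 0.80 ± 0.14, and in the activin receptor gene acvr2b.S, by 0.79 ± 0.12. Of 76 Wnt and planar polarity genes 3 rose (3.95%) and 6 fell (7.89%), near the shares of all genes. The receptor gene fzd10 fell in both copies, by 0.68 ± 0.13 in fzd10.L and 0.59 ± 0.13 in fzd10.S, while the receptor gene fzd3.L rose. The core planar polarity gene vangl1.L read 93.5 and 82.3 in TFAP2A caps, against 195.6 and 208.9 in control caps. In the Notch list of 38, with a median of -0.24 (-0.12 without Control MO replicate 2), the feedback inhibitor gene nrarp.S fell by 1.49 ± 0.20, though its dimmer probe set changed by 0.20. The Notch glycosyltransferase gene lfng.S and the coactivator gene maml1.L rose by 1.02 ± 0.12 and 1.01 ± 0.14.

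Heterotrimeric G protein genes moved in both directions. The beta subunit gene gnb3, best known from cone photoreceptors, had the largest mean change of any homeologue pair with both copies called. The brighter copy, gnb3.L, read 197.8 and 230.4 in TFAP2A caps, against 962.2 and 1184.6 in control caps, and gnb3.S read 65.2 and 105.8 in TFAP2A caps, against 211.2 and 396.3 in control caps. The beta subunit gene gnb4 rose in both copies, by 0.93 ± 0.12 in gnb4.L and 0.97 ± 0.16 in gnb4.S. The whole list of 157 kinase A, calcium and G-protein genes was evenly split, with 10 higher (6.37%), 10 lower (6.37%) and a median of 0.05. Over all genes 4.91% were higher and 7.41% lower.

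Protein folding genes of the endoplasmic reticulum were mostly on the lower side where called, with 9 of 53 lower (17.0%) and 1 higher (1.89%). Over all genes 7.41% were lower and 4.91% higher. The median of the 53 was -0.15. The membrane selenoprotein gene selenok.S fell by 3.59, to below 20 on both TFAP2A arrays, against 203.1 and 195.2 in control caps. The mannosidase-like gene edem3.L, which acts in disposal of misfolded glycoproteins, read 28.4 and 30.3 in TFAP2A caps, against 75.4 and 74.1 in control caps. The lectin chaperone calreticulin, calr, fell in both copies, with calr.S at 1682.7 and 1456.7 in TFAP2A caps, against 3226.1 and 2645.8 in control caps. The oligosaccharyltransferase subunit gene ostc fell in both copies too, by 0.78 ± 0.12 in ostc.S and 0.63 ± 0.12 in ostc.L, whereas rpn2.S, of the same enzyme, rose by 0.85 ± 0.12. The list's median was -0.07 without Control MO replicate 1 and also without TFAP2A MO1/2 replicate 2, -0.27 without TFAP2A MO1/2 replicate 1 and -0.29 without Control MO replicate 2, where selenok.S alone was called.

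Solute carriers, the largest family of membrane transporters, had 31 of 212 members lower, 14.6%, and 11 higher, 5.19%. The shares over all genes were 7.41% and 4.91%, and the median change of the carriers was -0.03. The amino acid transporter of the slc3a2 and slc7a5 pair fell in all 4 measured genes. Its heavy chain gene slc3a2.S read 149.4 and 126.5 in TFAP2A caps, against 464.7 and 390.5 in control caps (-1.63 ± 0.15, adjusted p = 0.00792). The light chain gene slc7a5.L read 12.9 and 18.5 in TFAP2A caps, against 35.2 and 33.8 in control caps, and slc7a5.S fell to the array floor, at least 1.51-fold lower. For slc3a2.L a dimmer probe set changed by 0.33 and was not called. The glucose transporter gene slc2a12.L, the thiamine transporter gene slc19a3.L and the nucleotide sugar transporter gene slc35a2.L had changes of -2.17 ± 0.36, -1.94 ± 0.21 and -1.74 ± 0.18.

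Of 83 genes of glycolysis and glucose transport, 6 rose (7.23%) and 9 fell (10.8%), beside 4.91% and 7.41% of all genes. Their median was 0.01. Falls included an entry enzyme of the pathway, pfkp.L, which read 24.7 and 23.6 in TFAP2A caps, against 50.6 and 72.5 in control caps. The later enzyme phosphoglycerate kinase rose under both of its annotated names, with pgk1.L at 158.7 and 273.7 in TFAP2A caps, against 64.1 and 58.0 in control caps. The annotation lists a gene called pgk1 apart from pgk1.L, which may share probes, and it rose by 2.49 ± 0.20. For glycogen phosphorylase, the probe sets of pygm.S ran in opposite directions, with a change of -1.31 in the brighter and a rise of 2.19 in the dimmer, so that copy has no settled direction.

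Vesicle and lysosome genes had called members on both sides. Of 97 autophagy and lysosome genes 10 rose, 10.3%, and 8 fell, 8.25%, with a median of 0.02. Over all genes 4.91% rose and 7.41% fell. The lysosome positioning gene rilp.S read 70.3 and 48.0 in TFAP2A caps, against 11.5 and 8.3 in control caps. Its known partner, the late endosome GTPase gene rab7a.S, read 353.8 and 340.1 in TFAP2A caps, against 168.4 and 152.6 in control caps. This gene was picked with its values in view. The gene vps4a.L, whose product recycles membrane-remodelling filaments, rose by 1.97 ± 0.20. Lysosomal enzymes were among the falls, with the thioesterase gene ppt1.S lower by 1.37 ± 0.23. Of 281 vesicle trafficking genes 15 rose (5.34%) and 22 fell (7.83%), near the shares of all genes. They were led by ehd2.S, which rose, and the sorting nexin gene snx12.S, which fell.

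Of 144 chromatin modifiers 10 rose (6.94%) and 13 fell (9.03%), with a median of 0.08. These shares were near the 4.91% higher and 7.41% lower of all genes. Each copy of the Polycomb gene eed rose, by 1.02 ± 0.17 in eed.L and 0.73 ± 0.15 in eed.S, and the histone H3 lysine methyltransferase gene suv39h2.L read 695.8 and 665.9 in TFAP2A caps, against 266.2 and 257.9 in control caps. Both copies of the maintenance DNA methyltransferase gene dnmt1 fell, by 0.85 ± 0.19 in dnmt1.L and 0.75 ± 0.16 in dnmt1.S. The histone demethylase gene kdm3a.L read 177.2 and 196.7 in TFAP2A caps, against 507.3 and 518.2 in control caps (-1.46 ± 0.12, adjusted p = 0.00682).

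In the circadian list 3 of 19 genes fell (15.8%, against 7.41% of all genes) and 0 rose. In 12 of the 19 both TFAP2A arrays lay below both control arrays, against 29.6% of all genes, and the median was -0.30. The repressor gene cry1.L fell by 2.42, to less than 16 on both TFAP2A arrays, against 70.9 and 80.7 in control caps. An activator of the same loop, arntl.L, read 42.3 and 31.4 in TFAP2A caps, against 86.4 and 88.4 in control caps. For arntl.L the TFAP2A arrays lay further apart than the control arrays. The median was -0.24 without Control MO replicate 2.

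Lists for tissues other than epidermis held called genes at or below the shares of all genes, 7.41% lower and 4.91% higher. Of 58 neural genes 2 fell (3.45%) and 0 rose, of 28 neural crest and plate border genes 2 fell (7.14%), and of 21 placode genes 0 were called by limma. The mesoderm and endoderm list of 94 had 3 members higher and 3 lower. The plate border factor pax3.L was bright in these caps, at 1110.0 and 1337.5 in TFAP2A caps, against 2391.8 and 2237.2 in control caps, and fell by 0.92 ± 0.15, while of its 4 other probe sets 2 were also lower and 2, near the floor, changed by -0.27 and 0.13 and were not called. The head factor otx1.L fell by 1.44 ± 0.13. Genes of oxidative metabolism and translation were rarely called, with 3 of 110 in the respiratory list higher and 1 lower, and 3 of 78 translation factors higher and 1 lower.

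Several of the largest single-gene changes were in genes not named so far. The TRPM channel regulator gene tcaf1.L, the calcium-activated scramblase family gene ano5.L and the membrane tether gene esyt2.L had changes of -2.18 ± 0.49, -2.37 ± 0.14 and -2.21 ± 0.19. The general transcription factor family gene gtf2ird1.S read 22.3 and 18.4 in TFAP2A caps, against 125.2 and 119.2 in control caps. Among rises, pou5f3.3.L, of the family of early embryonic POU factors that hold cells undifferentiated, read 112.6 and 157.6 in TFAP2A caps, against 19.1 and 14.2 in control caps. The ceramide synthase gene cers3.S, whose human product makes skin barrier lipids, read 81.6 and 76.2 in TFAP2A caps, against 20.5 and 18.3 in control caps. The membrane adaptor gene pag1.L rose by 2.06 ± 0.16 and the methyltransferase gene bmt2.S by 2.14 ± 0.22. The muscle LIM protein gene csrp3.L read 33.1 and 38.4 in TFAP2A caps, against 8.6 and 9.3 in control caps.

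Xenopus laevis is allotetraploid, and many genes are kept as an L and an S copy (homeologues). Over 2009 genes with both copies measured, the changes of the copies correlated at 0.40, as a description across genes. RNA of 1 copy may also bind probes of the other, so the copies are not independent measurements. Of these 2009 genes, the L copy was called in 271 and the S copy in 238. Both copies rose in 26, both fell in 43, and 7 had 1 copy higher and the other lower. In 357 genes 1 copy was called, and the other, uncalled copy had the same sign in 252 and the opposite sign in 105. The deubiquitinase gene stambpl1 rose in both copies, by 1.78 ± 0.31 in stambpl1.L and 1.03 ± 0.21 in stambpl1.S. The Kelch-repeat gene enc1.2 fell in both, by 0.92 ± 0.18 in enc1.2.L and 2.00 ± 0.21 in enc1.2.S.

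Opposite changes were clear in slc35a2, where slc35a2.L read 116.5 and 85.9 in TFAP2A caps, against 329.5 and 338.2 in control caps, while slc35a2.S read 515.7 and 499.4 in TFAP2A caps, against 293.3 and 301.1 in control caps. The glycosyltransferase gene large2 rose in large2.L, at 105.4 and 91.5 in TFAP2A caps, against 55.6 and 43.1 in control caps, and fell by 1.12 ± 0.20 in large2.S. Both genes were picked with their values in view. For snx12 the dimmer copy, snx12.S, fell by 2.23 ± 0.12, with 16.4 and 15.4 in TFAP2A caps and 77.0 and 72.2 in control caps. The brighter snx12.L, at 848.4 and 924.2 in TFAP2A caps and 885.2 and 779.2 in control caps, had a change of 0.09 and was not called.

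**Figure D5:**
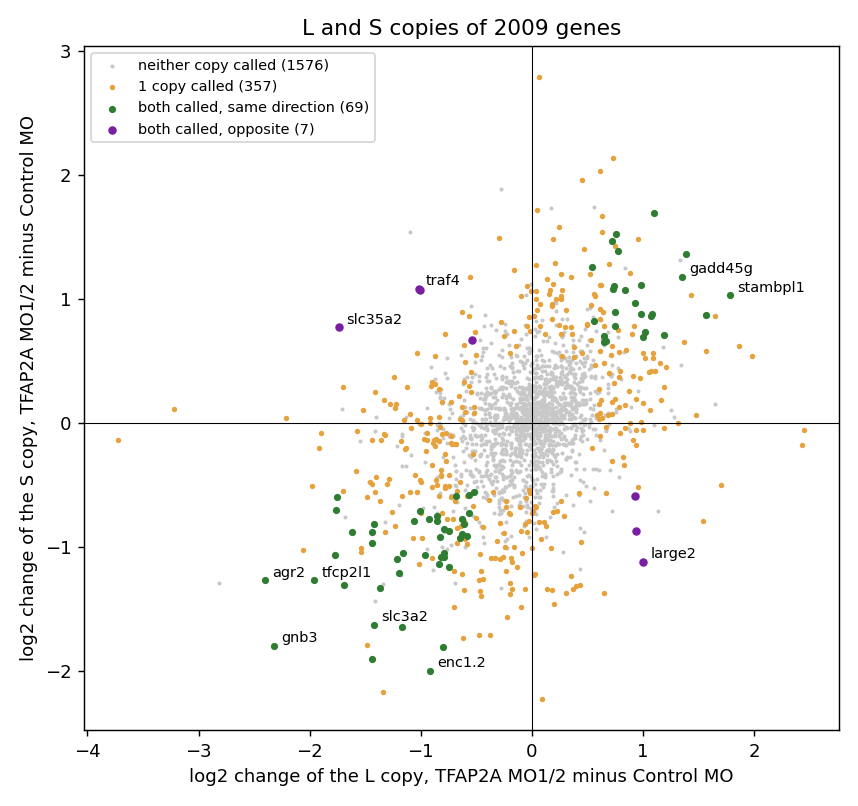
Log2 change, TFAP2A MO1/2 minus Control MO, of the L copy (horizontal) and the S copy (vertical) of 2009 genes. Green marks pairs with both copies called in the same direction (26 higher, 43 lower), purple the 7 called in opposite directions, orange those with 1 copy called and grey those with none.

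Where a gene had several probe sets, the others mostly ran with the brightest. Of 2702 such genes 341 were called by their brightest probe set, and in 258 of these all other probe sets had the same sign. Probe sets of 1 gene were read on the same arrays and may bind the same RNA. They are not independent measurements. In 6 genes another probe set was called in the opposite direction, for example ssu72.L, with 1.57 in the brightest and -0.77 in another. These genes were picked with their values in view.

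The direct comparison of TFAP2A with ERK3 caps, whose differences do not use the control arrays but whose standard errors come from the fit over all 6 arrays, called 1552 probe sets, 4.77% of 32539, and 644 genes, 5.7% of 11303. The chitinase gene chit1.S read 84.4 and 86.4 in TFAP2A caps, against 9.1 and 8.8 in ERK3 caps, and was higher by 3.25 ± 0.12 (adjusted p = 0.00184). Genes lower in TFAP2A than in ERK3 caps included selenok.S (-2.88 ± 0.14), gnb3.L (-2.06 ± 0.16), gtf2ird1.S (-2.03 ± 0.17), krt12.5.S (-1.75 ± 0.14) and cry1.L (-1.62 ± 0.17). The kinetochore gene nuf2.L was higher than in ERK3 caps by 2.71 ± 0.12, and vps4a.L by 1.66 ± 0.20. The value for nuf2.L is a difference from ERK3 caps and not a rise against control caps. Against control caps the largest rise in the mitosis and kinetochore list was 1.65, in cenpn.L. Other named genes were not told apart between the knockdowns: agr2.L differed by -0.03 ± 0.51, otx1.L by 0.03 ± 0.13 and kctd15.L by -0.33 ± 0.13, with adjusted p between 0.226 and 0.984. A p above the threshold does not show that these levels were equal. The retinoid isomerase gene rpe65.L and the galectin gene lgals4.1.s rose against control caps and were lower than in ERK3 caps, with differences of -2.19 ± 0.29 and -1.43 ± 0.16.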

How the data were processed

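RNA from stage 15 caps was measured on a GeneChip expression array designed for Xenopus laevis. Per the labels' protocols and the series' design text, the authors made the deposited intensity values, 1 per probe set, with the robust multiarray average (RMA), which evens out the arrays' distributions and can hide a change shared by most transcripts. The deposited intensity values were linear and were turned into log2 with no added constant. Array medians lay between 23.2 and 24.6. With 2 arrays in each group, precision is limited by their number, and there is no sequencing depth. The p-values measure the spread between samples that the labels call biological replicates.

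Of 32635 probe sets, 96 manufacturer controls were left out. GEO's platform annotation, which can be old, gave 1 symbol to 15495 of the 32539 tested, several to 279 and none to 16765, and 15384 matched the RefSeq table of assembly Xenopus_laevis_v10.1, which was used for names only. A gene is represented by its brightest probe set with a single symbol, and L and S copies are separate genes. All 6 arrays were fitted with limma 3.58.1 (lmFit, eBayes) in R 4.3.3, with 3 residual and 2.99 prior degrees of freedom, two-sided tests and Benjamini-Hochberg adjustment over all probe sets. If a group's arrays were both below their own lower quartile, the fold is a bound (at least) computed with that quartile in place of the dim value. The fit was also run on simulated arrays with known changes and independent noise. That run does not cover the shared deviations of same-numbered arrays described below. No sequences were used here.

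The genes and lists were chosen with earlier results of these data known. Lists were written as symbol patterns, and members that a pattern caught by name alone were removed. Named genes are the AP-2 list, the 20 largest rises and falls with groups apart, up to 5 called members per list with called homeologues, up to 10 homeologue pairs and the cell type markers. Any other named gene was chosen after its values were seen. Alternatives were the 4 arrays alone, a replicate block, leaving out each array, an intensity trend, a filter on low values, an added constant of 16, renewed quantile normalization, median centring and the mean over probe sets.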

Additional observations from a re-analysis of the deposited data

Results flagged for a closer look

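Outside the gene measurements, the manufacturer's poly-A spike controls, bacterial transcripts that are added to the RNA before labelling (dap, lys, phe and thr), read higher in TFAP2A caps than in control caps. Their median log2 difference over 24 probe sets was 0.42, with a range of 0.24 to 0.59. In 24 of 24 both TFAP2A arrays lay above both control arrays, against 29.3% of all genes. These probe sets measure only the few transcripts named, on the same arrays, and are not separate observations. Their mean log2 level was 8.71 and 8.73 in TFAP2A caps, against 8.47 and 8.15 in control caps, and ERK3 caps had 8.70 and 8.75. The 18 hybridization spike controls, which are added after labelling, had a median difference of 0.12. Both TFAP2A arrays lay above both control arrays in 11 of the 18 and below in 0. The median over all genes differed by 0.01. The part of these controls in the gene results was not tested. The 3 gapdh control probe sets had a median difference of -0.51.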

How the results depend on the processing

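Probe sets called without 1 of the arrays ranged from 4 to 1342 higher and from 3 to 1658 lower, against 1724 and 1953 with all arrays, and genes from 2 to 417 higher and from 1 to 714 lower, against 555 and 837. With a replicate block, 3798 probe sets were higher and 4136 lower, and 1313 genes were higher and 1742 lower, and all 1392 genes called without the block were called with it. The labels give no meaning to the numbers. Deviations of same-numbered TFAP2A and control arrays from their group means correlated at 0.55 over probe sets, those of TFAP2A and ERK3 arrays at 0.59 and those of ERK3 and control arrays at 0.54. This is a hint from the data, not the design, that numbers are shared, and 2 numbers do not settle it. The other alternatives kept these counts within 1.5 times. In 13 alternative fits 0 of the 276 called named genes changed sign, and 3 kept their call in each of them. For the fits without 1 array or with an added constant, the unchanged signs follow from the calls. The groups of every called gene do not overlap, and adding a constant keeps their order. The 4 arrays alone, the replicate block, the intensity trend and the filter on low values keep each log2 change as it was. Among the 13 fits, a sign could change only with renewed quantile normalization or median centring, so the 0 says little about stability. Median centring moved the median of all genes to 0.03, and 51.0% of called probe sets were then higher, against 46.9%. With 2 arrays per group, small changes are not detectable, and probe sets near the floor show few falls.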

Other observations

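In 75 genes the replicate 1 and replicate 2 arrays lay more than 2-fold apart in the same direction in all 3 groups, and in 10 of them more than 4-fold. These genes were picked with their values in view. The steroid dehydrogenase family gene hsd3b7.L read 5.0 and 90.3 in TFAP2A caps, 8.1 and 90.9 in ERK3 caps and 4.9 and 108.5 in control caps. The ribonucleotide reductase gene rrm2.1.L, whose product makes deoxynucleotides for DNA synthesis, read 2095.0 and 234.2 in TFAP2A caps, 1983.8 and 329.7 in ERK3 caps and 1757.7 and 193.3 in control caps. The histone gene h2bc11.S read 2547.4 and 433.1 in TFAP2A caps, 1940.4 and 398.2 in ERK3 caps and 1857.4 and 314.2 in control caps. The RNA exosome gene exosc10.L read 337.5 and 56.2 in TFAP2A caps and 323.7 and 26.4 in control caps. In these 4 genes the arrays fall apart by replicate number. Other genes of the 75 also differed by morpholino within each number: nkx2-3.L read 10.9 and 26.1 in TFAP2A caps, against 78.9 and 178.9 in control caps (-2.82), and fis1.S read 430.3 and 1063.5 in TFAP2A caps, against 120.3 and 276.7 in control caps (1.89). A gap within groups that is part of the choice of these genes widens the spread in the fit without a block, so the lack of a call there says nothing about the knockdown.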
